A study of Mus with 2 samples.

Results

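The transcripts of 8 receptors through which hematopoietic stem cells (HSCs) sense their bone marrow niche and circulating cytokines were followed in mouse HSCs that carried or had lost Id2, an inhibitor of basic helix-loop-helix transcription factors. The receptors, Tek, Cxcr4, Tgfbr1, Tgfbr2, Il6st, Csf3r, Ifnar1 and Ifngr1, were chosen by symbol, and all 8 were found among the 27998 gene rows. HSCs were sorted as LSK FLT3- CD150+ CD48- cells, lineage-negative bone marrow cells with Sca-1 and c-Kit further selected on 3 surface proteins. From each genotype, Mx1-Cre Id2+/+ and Mx1-Cre Id2Δ/Δ, 1000 such cells from the tibias and fibulas of 5 pooled mice, 8 to 12 weeks old, went into 1 library of 10x Genomics Chromium single-cell RNA-seq. A clause in the text for the Id2Δ/Δ sample gives its bones as Id2+/+, against its title and genotype field, which were followed. Both groups carried Mx1-Cre, a recombinase that interferon switches on in blood cells and in other interferon-responsive tissues. Per the study it was induced with pIpC, an RNA mimic that provokes interferon, 2 weeks before the cells were taken. With 1 library per genotype there was no replicate, so no test between genotypes was possible and every interval is a 95% interval of counting error alone.

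Each of these receptors stands at the head of a known pathway. Tek (Tie2) binds angiopoietins and Cxcr4 binds CXCL12, and both are known for holding HSCs in the niche. TGF-β assembles Tgfbr2, which binds it first, with Tgfbr1, and the pair signals through SMAD proteins toward quiescence. Il6st (gp130) is the shared signaling subunit of the IL-6 and IL-11 family of receptors, and Csf3r binds granulocyte colony-stimulating factor (G-CSF), which drives neutrophil production. Ifnar1 is a subunit of the type I interferon receptor and Ifngr1 the ligand-binding subunit of the interferon-γ receptor.

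In the mouse assembly GRCm38.p6, to which mm10 corresponds, RefSeq places Tek at chr4:94739086-94874976, Tgfbr1 at chr4:47353222-47414926 and Csf3r at chr4:126023441-126044975. Cxcr4 lies at chr1:128588199-128592299, Tgfbr2 at chr9:116087695-116175363 and Il6st at chr13:112464070-112506860. Ifnar1 lies at chr16:91485032-91510523 and Ifngr1 at chr10:19591949-19610229. All are protein-coding genes. Tgfbr1, Tgfbr2 and Csf3r each overlap 1 predicted gene (Gm32435, Gm31292 and Gm32908), so their reads could be shared where the counting did not separate them.

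The Id2+/+ library held 8612217 unique molecular identifiers (UMIs, 1 per captured RNA molecule) and the Id2Δ/Δ library 17140713. After clusters of neutrophil-like and erythroid-like cells were set aside, 262 and 416 cells were retained, with medians of 7081 and 9663 UMIs. The receptors took no part in the clustering. The 11 HSC markers examined summed to 1021 and 784 CPM in retained cells, beside 93.1 and 61.9 CPM in neutrophil-like and 179 and 176 CPM in erythroid-like cells. Retained cells also held UMIs of all 12 erythroid markers, at 2993 and 2553 CPM, beside 67632 and 33138 CPM in erythroid-like cells. Endothelium also makes Tek, and of 6 endothelial markers 4 were found in retained Id2+/+ and 3 in retained Id2Δ/Δ cells, summing to 89.1 and 48.0 CPM (UMIs per 1000000). Emcn stood at 32.8 and 16.4 CPM and Kdr at 2.34 and 1.49 CPM, and the defining genes Cdh5 and Stab2 were at 0 in both libraries. The part of such cells in the Tek level was not tested. Id2 itself had 22 UMIs in 20 of 262 retained Id2+/+ cells and none in 416 Id2Δ/Δ cells, so at most 0.721% would show a UMI, a limit on detection and not on cells that express the gene. The 10x tags lie near the 3′ end of a transcript, outside the deleted exons as the study describes them, so this count is only a partial check of the deletion. The libraries also differed in make-up. Cells in which Xist but no Y-linked gene was found, as in females, numbered 84 and 231, those with the reverse 93 and 90, and empty droplets held 46.3% and 22.4% of all UMIs. Only 1 cell barcode occurred in both libraries.

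Across cell kinds, 6 of the 8 receptors, all but Cxcr4 and Ifngr1, were more than 2-fold higher in retained than in erythroid-like cells of both libraries, and none was more than 2-fold lower. Of all genes, 29.2% were past that fold higher and 6.98% lower. Against neutrophil-like cells, Ifnar1 was more than 2-fold higher in retained cells of both libraries and Csf3r and Ifngr1 were more than 2-fold lower. Tek and Il6st join Ifnar1 only when a count of 0 is taken as past the fold, the rule under which 25.9% of all genes were higher and 4.14% lower. Both had no UMI in neutrophil-like Id2+/+ cells, and against a floor of 3 counts their ratios there were 1.66 and 0.938. Levels below are CPM of the summed cells, with the Id2+/+ library first. Median UMIs per cell were 17626 and 17986 in neutrophil-like and 33770 and 38755 in erythroid-like cells, beside 7081 and 9663 in retained cells. A lower CPM in those deeper cells need not mean fewer UMIs per cell.

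Tek was the receptor most nearly limited to the retained cells. It had 23 UMIs in 262 retained Id2+/+ cells and 40 in 416 Id2Δ/Δ cells, which made 10.8 CPM (6.83 to 16.2) and 8.54 CPM (6.10 to 11.6). Neutrophil-like cells had no Tek UMI in either library. Against a floor of 3 counts the retained cells were 1.66-fold and 2.07-fold higher, and the counting intervals of the ratio had lower limits of 1.24 and 1.60. In erythroid-like cells, 44 in the Id2+/+ library and 169 in the other, 1 Tek UMI was found in each. The level in retained cells was 15.1 times (2.45 to 622) and 54.8 times (9.29 to 2219) that in erythroid-like cells. Of its UMIs over all barcodes, 69.7% and 78.4% lay in retained cells, the highest share among the 8 receptors in both libraries. Against empty droplets, which hold free RNA, retained cells were 4.77 times (2.13 to 11.7) and 8.21 times (2.97 to 31.6) higher for Tek.

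Cxcr4 was spread over every kind of cell. Retained cells held 14 and 26 UMIs, or 6.56 CPM (3.59 to 11) and 5.55 CPM (3.62 to 8.13). Neutrophil-like cells stood at 19.5 CPM (8.91 to 37.0) on 9 UMIs in the Id2+/+ library and at 5.51 CPM (1.5 to 14.1) on 4 in the Id2Δ/Δ library. In erythroid-like cells the levels were 5.00 and 2.80 CPM. Neutrophil-like Id2+/+ cells had 2.97 times the level of retained cells (1.13 to 7.37), whereas in the Id2Δ/Δ library the ratio was 0.992 (0.252 to 2.86) and retained cells were 1.98 times above erythroid-like cells (1.04 to 3.83). Retained cells were not above empty droplets beyond counting error in either library, at 2.01 times (0.877 to 4.65) and 1.12 times (0.598 to 2.15).

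The TGF-β receptors were low in all cells. Tgfbr1 had 19 and 29 UMIs in retained cells, or 8.91 CPM (5.36 to 13.9) and 6.19 CPM (4.14 to 8.89), never more than 1 UMI in a cell. Tgfbr2 had 17 and 43 UMIs, or 7.97 CPM (4.64 to 12.8) and 9.18 CPM (6.64 to 12.4). A Tgfbr1 UMI was found in 4.55% and 9.47% of the deeper erythroid-like cells, beside 7.25% and 6.97% of retained cells. For Tgfbr2 these shares were 2.27% and 2.37%, beside 6.49% and 10.1%. As CPM, erythroid-like cells held less of both receptors. Retained cells were 6.23 times (1.5 to 55.2) and 2.34 times (1.24 to 4.54) higher for Tgfbr1, and 11.2 times (1.75 to 466) and 14.7 times (5.36 to 56.5) higher for Tgfbr2. The neutrophil-like levels, on 1 to 4 UMIs, differed from the retained ones within counting error except for Tgfbr2 in the Id2Δ/Δ library, where retained cells were 6.67 times higher (1.13 to 269). Against empty droplets, retained Id2+/+ cells were 1.42 times (0.739 to 2.68) higher for Tgfbr1 and 1.38 times (0.692 to 2.70) for Tgfbr2, both within counting error, and retained Id2Δ/Δ cells 4.76 times (1.82 to 15.8) and 17.7 times (4.6 to 150). Both receptor chains were found together in no Id2+/+ cell and in 4 Id2Δ/Δ cells, the latter 13.8% of the cells with Tgfbr1, beside 10.1% of all retained cells that had Tgfbr2.

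Il6st followed Tek. Its 13 and 36 UMIs in retained cells, 6.09 CPM (3.24 to 10.4) and 7.68 CPM (5.38 to 10.6), faced 1 and 2 UMIs in erythroid-like cells and 0 and 1 in neutrophil-like cells. Retained cells were 8.53 times (1.28 to 363) and 24.7 times (6.35 to 212) above erythroid-like cells. Retained cells were 3.47 times (1.29 to 10.3) and 9.85 times (3.11 to 50) above empty droplets for Il6st. In the Id2+/+ library 3 of the 13 UMIs came from 1 cell. Il6ra, the IL-6-binding partner of gp130, was found in 1 of 11 and 4 of 35 cells with an Il6st UMI, or 9.09% and 11.4%, beside 6.87% and 7.69% of all retained cells.

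Csf3r separated all 3 kinds of cell in both libraries. Neutrophil-like cells were highest, at 77.9 CPM (54.6 to 108) and 49.6 CPM (34.7 to 68.6) on 36 UMIs each. Retained cells came next, at 23.9 CPM (17.8 to 31.4) and 17.5 CPM (13.9 to 21.7) on 51 and 82 UMIs. Erythroid-like cells were lowest, at 2.14 and 0.934 CPM on 3 and 6 UMIs. The step from retained to neutrophil-like cells was 3.26-fold (2.07 to 5.09) and 2.83-fold (1.86 to 4.24), and that from erythroid-like to retained cells 11.2-fold (3.61 to 55.9) and 18.7-fold (8.25 to 52.5). Retained cells were 1.36 times (0.930 to 1.98) and 2.10 times (1.38 to 3.27) above empty droplets, the first within counting error. They also held UMIs of all 10 neutrophil markers, summing to 1073 and 641 CPM, with Elane at 219 and 68.1 CPM and Mpo at 226 and 70.6 CPM, beside 21550 and 24639 CPM of Elane and 10772 and 11319 CPM of Mpo in neutrophil-like cells. Neutrophil RNA at the share that Elane gives, 1.02% and 0.276%, would carry 0.793 and 0.137 CPM of Csf3r into retained cells, and at the share that Mpo gives, 2.10% and 0.624%, 1.64 and 0.309 CPM.

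As CPM, Ifnar1 was highest in retained cells. They held 69 and 99 UMIs, or 32.3 CPM (25.2 to 40.9) and 21.1 CPM (17.2 to 25.7). Erythroid-like cells were 4.53-fold (2.32 to 9.86) and 3.08-fold (2.14 to 4.51) lower, and neutrophil-like cells 2.49-fold (1.09 to 7.02) and 2.56-fold (1.13 to 7.14) lower. Erythroid-like and neutrophil-like levels did not differ beyond counting error. Retained cells were 2.26 times (1.57 to 3.27) and 3.69 times (2.31 to 6.16) above empty droplets.

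Ifngr1 had the opposite pattern, with neutrophil-like cells far above the rest. Their 500 CPM (438 to 569) and 588 CPM (533 to 646) were 5.93 times (4.86 to 7.24) and 7.85 times (6.80 to 9.06) the levels of the retained cells, 84.4 CPM (72.5 to 97.6) and 74.9 CPM (67.3 to 83.2). It was found in 26 of 27 and 39 of 40 neutrophil-like cells, with up to 18 and 24 UMIs in 1 cell. Retained and erythroid-like cells were close, with ratios of 1.15 (0.895 to 1.48) and 1.24 (1.07 to 1.44). Ifngr1 was plentiful in empty droplets too, at 119 and 61.6 CPM, so that retained cells were below the droplets in the Id2+/+ library (0.709 times, 0.594 to 0.844) and slightly above them in the other (1.22 times, 1.03 to 1.44). When the droplet profile was subtracted at the share that haemoglobin genes gave, 10.5% and 5.41%, 153 of 180 and 335 of 351 Ifngr1 UMIs were left.

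Within erythroid-like cells Ifngr1 was uneven. In the clusters with the least haemoglobin, 0.385% and 0.221% of UMIs, it stood at 90.7 CPM (73.6 to 111) in 27 Id2+/+ cells and 88.5 CPM (78.8 to 99.1) in 81 Id2Δ/Δ cells. In the cluster with 2.86% and 1.35% haemoglobin it stood at 12 CPM (2.48 to 35.1) in 8 cells and 30.0 CPM (24.1 to 37.0) in 75 cells. In the haemoglobin-rich cluster, where these genes made 87.1% and 88.3% of UMIs, 3 Ifngr1 UMIs in 9 Id2+/+ cells made 37 CPM (7.62 to 108), and 13 Id2Δ/Δ cells had none (0 to 33 CPM), so its level could not be told from that of the intermediate cluster. Erythroid-like cells with little haemoglobin thus carried more Ifngr1 than those of the intermediate cluster in both libraries, with intervals that did not overlap.

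**Figure D1:**
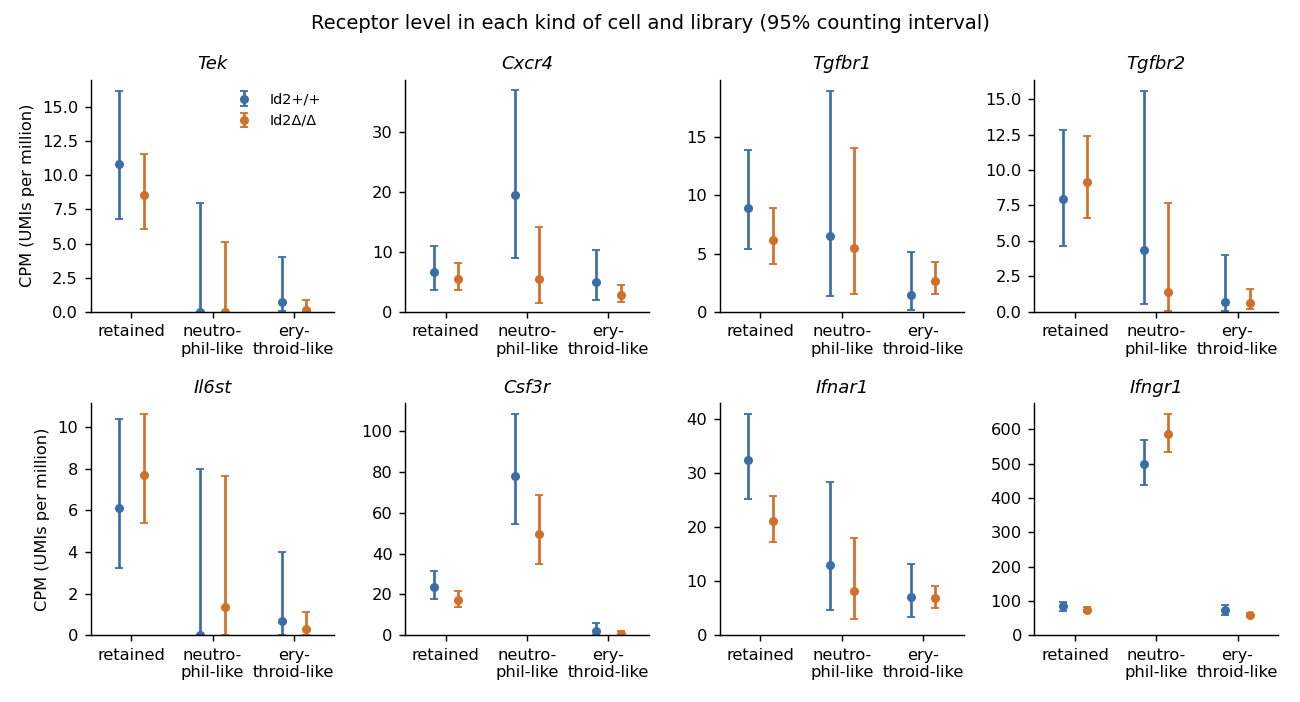
CPM of each receptor (vertical axis, from 0, on its own scale) in retained, neutrophil-like and erythroid-like cells of the Id2+/+ (blue) and Id2Δ/Δ (orange) libraries, with bars for the 95% Poisson interval. Tek and Il6st sit above 0 mainly in retained cells, Ifnar1 is highest there, and Csf3r and Ifngr1 are highest in neutrophil-like cells of both libraries.

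Shares of cells with a UMI depend on depth, so UMIs were drawn at random from every cell down to 5800, which left out 66 of the 262 retained Id2+/+ cells and none of the 416 Id2Δ/Δ cells. At that depth 62.2% (55.1 to 69.1) and 60.6% (55.7 to 65.3) of retained cells showed at least 1 of the 8 receptors, and 16.3% (11.4 to 22.3) and 17.1% (13.6 to 21.0) showed at least 2. Before thinning, 24.8% and 19.7% of retained cells showed none. Erythroid-like cells thinned in the same way showed 2 receptors in 0 of 42 and 0 of 169 cells, which allows shares of up to 7.14% and 1.78%. Neutrophil-like cells showed at least 1 in 96.3% and 95%, and all of these had Ifngr1.

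**Figure D2:**
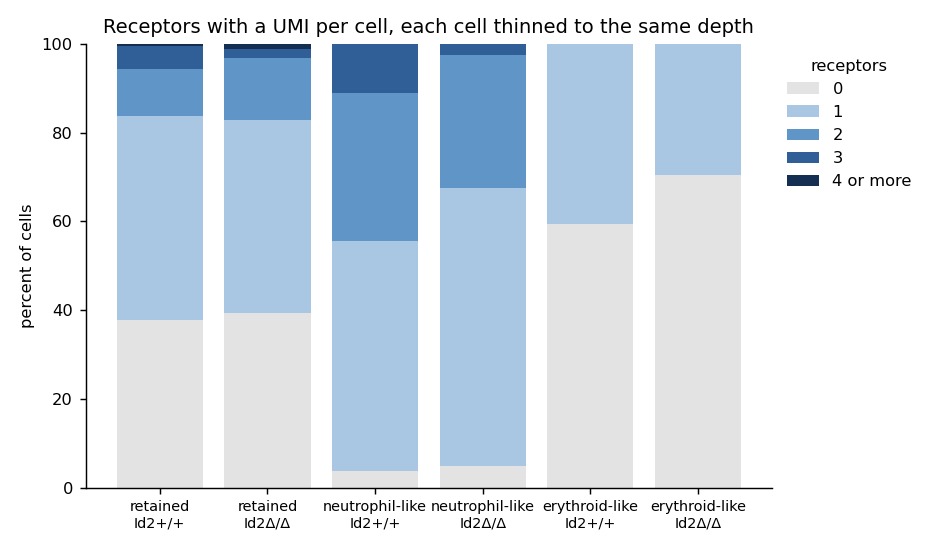
Percent of cells (vertical axis) with UMIs of 0, 1, 2, 3 or at least 4 of the 8 receptors (shades), after each cell was thinned to 5800 UMIs, for each kind of cell and library. Retained cells with at least 2 receptors made 16.3% and 17.1%, whereas no erythroid-like cell had more than 1.

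The partner subunits of Ifnar1 and Ifngr1 were found in cells with these receptors about as often as in all retained cells. Ifnar2, the second type I interferon receptor subunit, was present in 38.7% and 41.0% of cells with Ifnar1, beside 33.6% and 38.7% of all retained cells. Ifngr2 was present in 12.8% and 20.4% of cells with Ifngr1, beside 12.6% and 20.2%. Tie1, the relative that pairs with Tek, was present in 28.6% of Id2+/+ and 46.2% of Id2Δ/Δ cells with Tek, beside 37.8% and 33.7%, and the direction differed between the libraries. Most detections rest on 1 UMI, so absence of a partner in a cell is not absence of its RNA.

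Between the genotypes, none of the receptors was more than 1.5-fold higher in retained cells of the Id2Δ/Δ library and 1, Ifnar1, was more than 1.5-fold lower, beside 3.76% of the 10458 genes with at least 20 UMIs that were higher and 13.3% that were lower. Under TMM, a scaling by a trimmed mean of ratios, the count of lower receptors became 0 and those of all genes 624 higher and 1015 lower, beside 393 and 1386 as reported. Of the 8 ratios of Id2Δ/Δ over Id2+/+, 6 were below 1, as were those of 58.1% of all genes. Their median log2 ratio was -0.29 and that of all genes -0.07, and under TMM these were -0.18 and 0.03.

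Ifnar1 stood at 32.3 CPM in the Id2+/+ and 21.1 CPM in the Id2Δ/Δ library, a ratio of 0.653, and its interval of 0.476 to 0.902 was the only one of the 8 that left out 1 in retained cells. With neutrophil-like and erythroid-like cells kept in, whose numbers differed between the libraries, those of Tek (0.577, 0.340 to 0.998), Cxcr4 (0.540, 0.335 to 0.883), Csf3r (0.465, 0.352 to 0.617) and Ifngr1 (0.765, 0.689 to 0.850) lay below 1 as well. The ratio was 0.595 (0.361 to 1.0) in cells with Xist alone and 0.578 (0.292 to 1.13) in cells with Y-linked UMIs alone, 0.704 (0.512 to 0.971) under TMM, and 0.639 after subtraction of the empty-droplet profile. In cells classed as HSC-like, which made very different shares of the libraries, it was 1.23 (0.665 to 2.19), on the other side of 1 and within counting error of it. Cutting the classes in other ways, chosen after seeing the data, gave 0.715 (0.470 to 1.09) at a coarser resolution of the clustering, 1.13 (0.644 to 1.94) at a finer one and 0.922 (0.495 to 1.78) when genes were scaled within each library. In erythroid-like cells the ratio was 0.959 (0.475 to 2.14). As a share of cells at equal depth, 16.3% of Id2+/+ and 13.2% of Id2Δ/Δ retained cells had an Ifnar1 UMI, a difference of -3.11 points with an interval from -9.61 to 2.67.

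In all retained cells the ratios of the other receptors were within counting error of 1. Csf3r stood at 0.732 (0.510 to 1.06) in retained and at 0.636 (0.389 to 1.04) in neutrophil-like cells. Ifngr1 stood at 0.888 (0.740 to 1.07), and at 1.01 in both the Xist cells (0.740 to 1.40) and the Y-linked cells (0.725 to 1.43). Tek stood at 0.792 (0.463 to 1.39), Cxcr4 at 0.846 (0.426 to 1.75) and Tgfbr1 at 0.695 (0.377 to 1.31). The 2 ratios above 1 were those of Tgfbr2, at 1.15 (0.643 to 2.15), and Il6st, at 1.26 (0.653 to 2.59). Intervals this wide do not show equal levels: for Il6st they leave room for more than a 2-fold higher level in the Id2Δ/Δ library. In HSC-like cells alone, which come from different clusters in the libraries, the ratio was 1.71 (1.21 to 2.39) for Ifngr1 and 3.14 (1.13 to 8.59) for Il6st, both with intervals above 1, and 2.53 (0.885 to 6.92) for Tek. These ratios depend on how the class was cut. At the coarser resolution they were 1.15 (0.914 to 1.46), 1.47 (0.663 to 3.5) and 1.02 (0.444 to 2.43), and with genes scaled within each library 1.23 (0.858 to 1.79), 1.35 (0.501 to 4.21) and 1.69 (0.434 to 9.53), all with intervals that included 1. At the finer resolution Ifngr1 was at 1.61 (1.17 to 2.21) and Il6st at 2.54 (0.948 to 6.80).

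**Figure D3:**
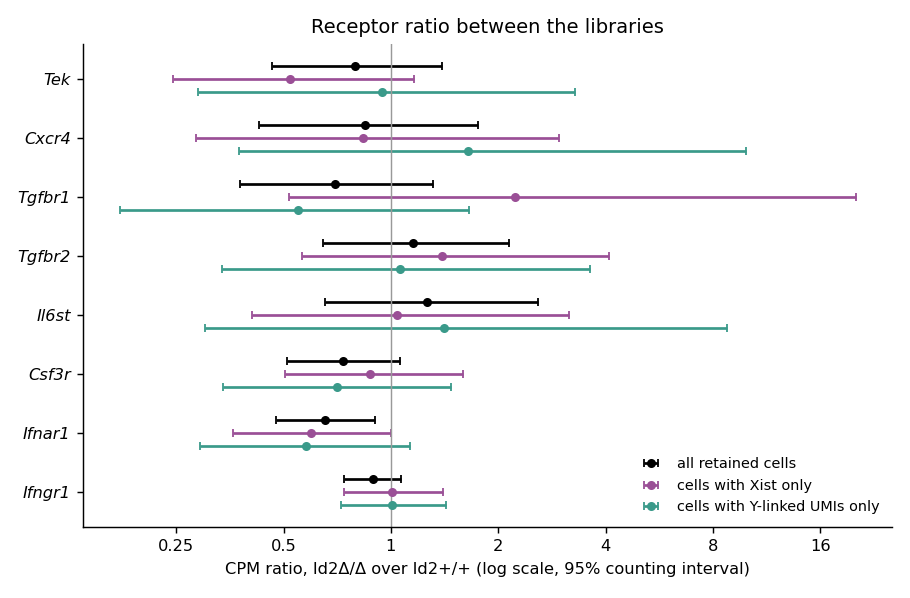
Ratio of CPM in the Id2Δ/Δ over the Id2+/+ library (horizontal axis, log scale) for each receptor in all retained cells (black), cells with Xist only (purple) and cells with Y-linked UMIs only (green), with 95% counting intervals. The interval of Ifnar1 in all retained cells, 0.476 to 0.902, lies below 1, and those of the other 7 receptors span it.

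At equal depth the shares of cells with a UMI were alike within counting error for all 8 receptors. Tek was found in 5.61% and 5.53% of retained cells, Tgfbr1 in 4.08% and 3.85%, Tgfbr2 in 4.59% and 5.77%, and Il6st in 3.06% and 4.81%. Csf3r was found in 12.2% and 10.3%, Ifngr1 in 36.7% and 35.8%, and Cxcr4 in 2.04% and 2.40%. Each interval of the difference included 0, the widest being -9.17 to 7.06 points for Ifngr1. Of erythroid-like cells thinned alike, 28.6% and 21.3% had an Ifngr1 UMI and none had one of Tek or Csf3r.

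The retained cells were also split into stem cell classes by clustering without the receptors. HSC-like cells numbered 174 in the Id2+/+ and 43 in the Id2Δ/Δ library, and different clusters made up most of them. Most of the Id2+/+ ones came from a cluster led by Meg3, Fos and Klf2, and those of the Id2Δ/Δ library from one led by Sult1a1, Gm4951 and Iigp1 that also holds Procr among its 10 leading genes. In this clustering the Id2Δ/Δ library alone had activated HSC-like cells (78), led by DNA replication genes such as Ung, Hells and Lig1, and platelet-biased HSC-like cells (61), led by Pf4, Gp1bb and Itga2b. Unnamed clusters held 88 and 234 cells. No cell was named activated at a coarser resolution or when genes were scaled within each library, so values for that class do not carry over to those clusterings. Platelet-biased cells numbered 67 in the Id2+/+ and 0 in the Id2Δ/Δ library at the coarser resolution, 6 and 101 at a finer one, and 31 and 64 with genes scaled within each library, so which library held them depends on the clustering too.

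Among the classes of the Id2Δ/Δ library, HSC-like cells had more Ifngr1, Ifnar1 and Il6st than platelet-biased cells, and platelet-biased cells had almost no Csf3r. Ifngr1 stood at 164 CPM (123 to 214) in HSC-like cells, 67.1 CPM (52 to 85.2) in activated cells and 37.5 CPM (25.9 to 52.3) in platelet-biased cells, and the HSC-like level was 4.38 times that of platelet-biased cells (2.80 to 6.93). Ifnar1 followed the same order at 51.6, 22 and 13.2 CPM, the first being 3.90 times the last (1.76 to 8.96). Il6st stood at 27.3, 6.01 and 3.30 CPM, the first being 8.27 times the last (2.06 to 47.5). With genes scaled within each library the HSC-like and platelet-biased levels were 33.6 and 13.1 CPM for Ifnar1 and 17.3 and 3.86 CPM for Il6st, closer together but in the same order. Tek stood at 24.3, 4.0 and 8.81 CPM, 6.06 times higher in HSC-like than in activated cells (1.62 to 27.5). Tgfbr1 stood at 18.2, 5.00 and 4.41 CPM, within counting error. For both genes the platelet-biased level was below the HSC-like one, within counting error for these classes and beyond it in the other clusterings that named both in this library. For Tek the ratio of platelet-biased over HSC-like cells was 0.363 (0.119 to 1.11), 0.311 (0.111 to 0.908) at the finer resolution, and 0.214 (0.0378 to 0.830) with genes scaled within each library, there on 2.31 and 10.8 CPM. For Tgfbr1 it was 0.242 (0.0502 to 1.02), 0.249 (0.0666 to 0.932) and 0.178 (0.0322 to 0.660), the last on 2.31 and 13.0 CPM. At the coarser resolution, which named no platelet-biased cell in this library, the HSC-like levels were 9.23 CPM for Tek and 8.65 CPM for Tgfbr1. Cxcr4 ran the other way, at 3.03, 7.01 and 9.91 CPM, but on 1, 7 and 9 UMIs and within counting error. With genes scaled within each library, platelet-biased cells had 12.3 CPM of Cxcr4 on 16 UMIs and HSC-like cells 2.17 CPM on 2, a ratio of 5.70 (1.34 to 51.1), and at the finer resolution the ratio was 4.49 (0.708 to 187). Tgfbr2 was highest in activated cells, at 11 CPM (5.50 to 19.7), again within counting error of the rest.

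Csf3r had 10 UMIs in 43 HSC-like, 22 in 78 activated and 2 in 61 platelet-biased cells, or 30.3, 22 and 2.2 CPM (0.267 to 7.96). The HSC-like and activated levels were within counting error of each other, at a ratio of 1.38 (0.583 to 3.03). Activated cells were 10.00 times above platelet-biased cells (2.46 to 87.7). The platelet-biased level was below the 8.32 CPM of empty droplets in that library. Csf3r stayed low when classes were cut differently, at 2.30 CPM in 101 platelet-biased cells at a finer resolution and 1.54 CPM in 64 when genes were scaled within each library. That scaling also gave 31 Id2+/+ cells the platelet-biased name, with 6.93 CPM of Csf3r (1.43 to 20.2) beside 21.4 CPM (10.3 to 39.4) in their HSC-like cells. A coarser resolution named 67 Id2+/+ cells and no Id2Δ/Δ cells platelet-biased, with 14.1 CPM (7.05 to 25.3).

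**Figure D4:**
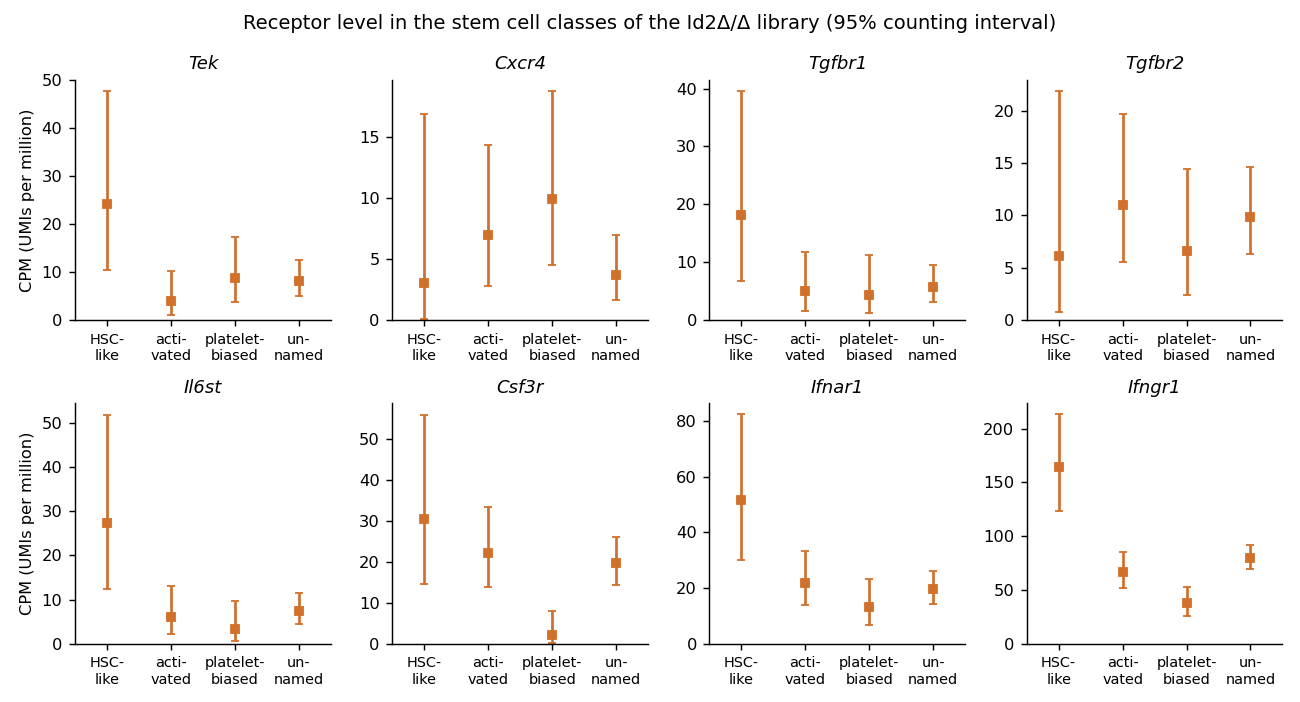
CPM of each receptor (vertical axis, from 0, on its own scale) in the HSC-like (43), activated (78), platelet-biased (61) and unnamed (234) retained cells of the Id2Δ/Δ library, with bars for the 95% Poisson interval. Ifngr1 runs from 164 CPM in HSC-like to 37.5 CPM in platelet-biased cells, and Csf3r is at 2.2 CPM in the latter.

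In the Id2+/+ library, HSC-like cells had more Ifnar1 than the unnamed cells, 41.8 against 21.3 CPM (1.96 times, 1.15 to 3.45), more Tgfbr1, 13.1 against 4.06 CPM (3.22 times, 1.02 to 13.3), and more Csf3r, 30.5 against 16.2 CPM (1.88 times, 1.01 to 3.63). Tek (0.786, 0.314 to 1.95) and Cxcr4 (0.643, 0.184 to 2.11) were lower in HSC-like than in unnamed Id2+/+ cells within counting error, whereas in the Id2Δ/Δ library Tek was 2.97 times higher (1.13 to 7.05). The same ratio for Ifnar1 in the Id2Δ/Δ library was 2.63 (1.42 to 4.66). The HSC-like class depends on the clustering. At the coarser resolution it took 205 Id2Δ/Δ cells, and their Ifngr1 was then 113 CPM and their Il6st 12.1 CPM.

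The genes whose levels across 10 combinations of cell kind or class and library were most like those of a receptor were found for the 3 receptors with at least 100 UMIs. They were Elovl5 (Pearson r = 0.987) and Echs1 (0.978) for Csf3r, Cand2 (0.987) and Zfp148 (0.984) for Ifnar1, and Gfi1 and Tom1 (both 0.981) for Ifngr1. Gfi1 encodes a repressor of transcription needed in neutrophil formation. These points share libraries, and the neutrophil-like pair weighs heavily, so the values are descriptions.

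Genes that act with the receptors were taken from 5 lists holding 123 genes, of which 96 had at least 20 UMIs in retained cells. Of those, 2 were more than 1.5-fold higher in the Id2Δ/Δ library and 21 lower, beside 3.76% and 13.3% of all genes, and their median log2 ratio was -0.15. Under TMM the 21 became 13 and the 2 became 3.

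Around Tek and Cxcr4, 3 of 10 genes were past 1.5-fold lower and none higher, and 1 under TMM, where Tie1 (0.669) and Rgs1 (0.681) were no longer past the fold. Tie1 stood at 59.1 and 36.7 CPM (ratio 0.622, 0.491 to 0.788), Rgs1, a brake on chemokine receptor signaling, at 100 and 63.4 CPM (0.632, 0.528 to 0.757), and Dpp4, a peptidase that cleaves CXCL12, at 20.2 and 10.0 CPM (0.498, 0.322 to 0.771). The signal carriers Gnai2 (0.951), Cdc42 (0.976) and Rac2 (0.985) were nearly level. Dpp4 did not keep its direction in cells with Xist alone, where the ratio was 1.34 (0.542 to 3.97) on 6 and 27 UMIs. In HSC-like cells Tie1 stood at 1.07 (0.668 to 1.66) and Rgs1 at 1.21 (0.861 to 1.67).

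In the TGF-β list, 5 of 18 genes were past 1.5-fold lower and 1 higher, with a median of -0.18. Smad7, the inhibitory SMAD that the pathway itself induces, went from 50 UMIs (23.4 CPM) to 33 (7.04 CPM), a ratio of 0.301 (0.188 to 0.476). It was 0.460 (0.203 to 1.09) in Xist cells and 0.151 (0.0512 to 0.373) in Y-linked cells, and 0.610 (0.231 to 1.38) in HSC-like cells. Bmpr2, a BMP receptor, stood at 0.486 (0.286 to 0.827) and Ltbp3, which stores latent TGF-β, at 0.550 (0.309 to 0.987). The gene higher was Tgfbr3 (betaglycan), a co-receptor that presents TGF-β to Tgfbr2, at 11.2 and 19.2 CPM (1.71, 1.08 to 2.80), with 1.65 (0.805 to 3.82) in Xist, 2.12 (0.868 to 5.90) in Y-linked and 1.07 (0.255 to 3.47) in HSC-like cells. Tgfb1, the ligand, was at 1.18 (1.08 to 1.28), with 0.970 (0.857 to 1.10) in Xist, 1.23 (1.04 to 1.46) in Y-linked and 0.835 (0.616 to 1.12) in HSC-like cells. Ski, a corepressor of SMADs, was at 1.13 (0.756 to 1.71), with 1.41 (0.750 to 2.89) in Xist, 0.424 (0.164 to 1.03) in Y-linked and 1.36 (0.478 to 3.40) in HSC-like cells.

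Immediate early genes, which respond within minutes to stimulation and to handling, were lower in the Id2Δ/Δ library. A set of 12, drawn up after the values of some were known, summed to 1768 CPM in retained Id2+/+ cells and 675 CPM in Id2Δ/Δ cells, a ratio of 0.382 (0.364 to 0.401). Of the 12, 11 were below 1, beside 58.1% of all genes, and Atf3 was at 0 in both libraries. Fos stood at 211 and 35.2 CPM. Their part in the lower ratios of Smad7, Ifnar1 and the rest was not tested.

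In the gp130 and G-CSF list, 4 of 15 genes were past 1.5-fold lower and none higher, with a median of -0.23. Under TMM 2 were lower, and Stat5a (0.712) and Jak2 (0.674) were no longer past the fold. Stat5a, a transcription factor downstream of cytokine receptors, stood at 76.9 and 50.8 CPM (0.661, 0.539 to 0.811). The kinases Jak2 (0.626, 0.388 to 1.02) and Tyk2 (0.583, 0.335 to 1.03) were lower with intervals that reached 1. Tyk2 stood at 0.406 (0.174 to 0.977) in Xist, 0.883 (0.314 to 2.57) in Y-linked and 1.74 (0.467 to 5.60) in HSC-like cells. Jak2 was below 1 in each of these. Il11ra1, the IL-11-binding partner of gp130, stood at 0.947 in all retained cells, but at 1.53 (1.13 to 2.11) in Xist and 0.678 (0.482 to 0.952) in Y-linked cells. The phosphatase Ptpn11 was at 1.05, and Socs1, a feedback inhibitor, was at 1.39 (0.846 to 2.36).

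In the interferon list, 3 of 25 genes were past 1.5-fold lower and none higher, with a median of 0.00. Stat2, which carries the type I interferon signal, stood at 20.6 and 7.26 CPM (0.352, 0.218 to 0.563), with 0.357 (0.170 to 0.761) in Xist cells and 0.353 (0.121 to 0.935) in Y-linked cells. Oasl2 (0.581, 0.447 to 0.757) and Rsad2 (0.603, 0.377 to 0.970), both interferon-induced antiviral genes, were also lower. Bst2 (1.18, 1.03 to 1.36), Zbp1 (1.23, 0.724 to 2.17) and the interferon-γ-induced GTPase gene Igtp (1.24, 0.945 to 1.65) were the highest of those with at least 50 UMIs. In HSC-like cells 14 of 24 genes of the list were past 1.5-fold higher in the Id2Δ/Δ library and none lower, beside 9.03% and 18.2% of all genes with at least 20 UMIs there. Igtp stood at 2.56 (1.62 to 4.02), Zbp1 at 3.17 (1.21 to 8.22), Bst2 at 1.47 (1.11 to 1.93), Oasl2 at 1.13 (0.673 to 1.83), Rsad2 at 1.68 (0.822 to 3.29) and Stat2 at 0.923 (0.389 to 1.96). Genes of this list took part in the clustering, and Iigp1 is among the leading genes of the Id2Δ/Δ HSC-like cluster, so this count describes that cluster and is no result between genotypes. In HSC-like cells the Tie and CXCL12 list had 0 of 9 genes higher and 2 lower, and the TGF-β list 0 of 12 and 4. The gp130 and G-CSF list had 2 of 12 higher and 2 lower, and the other receptors 5 of 24 and 5.

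Among 28 other surface receptors, 6 were past 1.5-fold lower and 1 higher, with a median of -0.16. Under TMM 2 were lower, and Adgrg1 (0.683) and Notch2 (0.674) were no longer past the fold. Adgrg1, an adhesion receptor abundant in HSCs, stood at 532 and 338 CPM (0.634, 0.587 to 0.685), and was below 1 in Xist (0.787), Y-linked (0.513) and HSC-like cells (0.696). Flt3 (0.612, 0.378 to 0.999), whose protein the sort selected against, and Notch2 (0.626, 0.409 to 0.966) were also lower, although Flt3 stood at 1.24 (0.484 to 3.40) in Y-linked cells. Il3ra, the IL-3 receptor subunit, was higher at 13.6 and 20.9 CPM (1.54, 1.01 to 2.42), with 0.978 (0.453 to 2.17) in Y-linked cells. The platelet integrin gene Itga2b was at 1.29 (1.12 to 1.49), but at 0.947 (0.766 to 1.18) in Xist and 0.611 (0.278 to 1.21) in HSC-like cells.

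**Figure D5:**
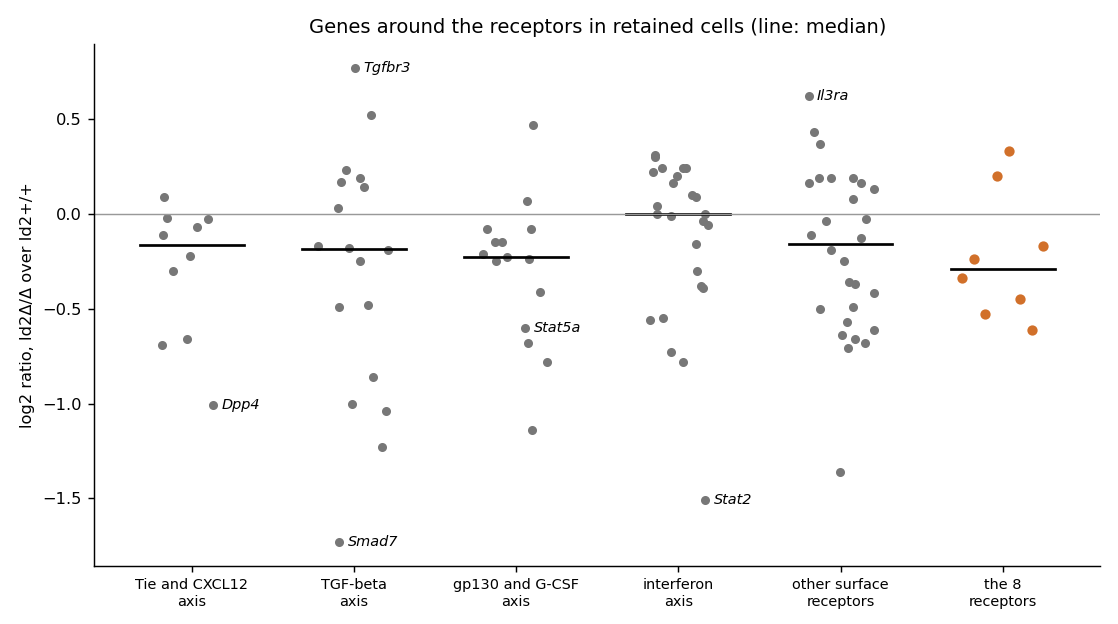
Log2 ratio of Id2Δ/Δ over Id2+/+ in retained cells (vertical axis) for each gene with at least 20 UMIs of the 5 lists (grey points) and for the 8 receptors (orange points), with black lines for medians. The medians lie between -0.23 and 0.00 for the lists and at -0.29 for the receptors, and Smad7 at 0.301-fold and Stat2 at 0.352-fold are the lowest points of their lists.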

How the data were processed

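The authors deposited raw UMI counts per gene and barcode for each library, with no normalization. The submitters' processing notes name Cell Ranger 2.2.0 and mm10. The members and gene lists were chosen with earlier results of these data known.

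Cells were barcodes reaching 10% of the 99th-percentile depth among the 1000 deepest barcodes, less those at 10% mitochondrial UMIs or above, which left 333 and 625. They were clustered in scanpy 1.11.5 (Leiden, resolution 1) from log counts scaled to 10000, with the 2000 most variable genes except the receptors, 20 components and 15 neighbours. Clusters with 4 or more markers of another type past a log2 fold of 1, each found in 25% of the cluster, and with lower HSC markers, were set aside. Retained cells were clustered again at resolution 0.8. A class was named from at least 3 markers past a log2 fold of 0.5, unless another type had at least 1 marker, and as many as its own, among the 10 leading genes, a condition set after clusters were seen. No doublet caller was used.

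Counts were summed per library and cell kind and expressed as CPM, with Poisson intervals (exact). Ratios have the exact conditional interval, shares have Clopper-Pearson and differences of shares Newcombe intervals, all at 95%. Limits for 0 use 3 counts. Empty droplets were barcodes with 1 to 100 UMIs. TMM came from edgeR 4.0.16. Named list genes were the 3 highest and 3 lowest ratios per list with at least 50 UMIs over both libraries. 1 gene that this rule names is not reported here. For the receptors with at least 100 UMIs in retained cells, the 2 genes with the best correlated log2(CPM + 10) were named.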

Additional observations from a re-analysis of the deposited data

How the results depend on the processing

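No paired analysis was possible because there was a single library for each genotype. Removing the mitochondrial limit, setting it to 5% or clustering with the receptors kept the retained cells or dropped 1, so these 3 settings say nothing of stability. Of the other 80 alternative values of the 8 ratios between genotypes, 73 stayed inside the counting interval of the reported value and on its side of 1 where that interval left out 1. In HSC-like cells alone the ratios were 2.53 for Tek, 1.39 for Tgfbr1, 3.14 for Il6st (1.13 to 8.59), 1.71 for Ifngr1 (1.21 to 2.39) and, on the other side of 1, 1.23 for Ifnar1, and the cause was not tested. With the classes cut in 3 other ways, chosen after seeing the data, these ranged from 1.02 to 2.03, 0.657 to 1.09, 1.35 to 2.54, 1.15 to 1.61 and 0.715 to 1.13. In cells with Xist alone Tgfbr1 was at 2.23, on 2 and 15 UMIs. With every cell type kept, Csf3r was at 0.465, Cxcr4 at 0.540, Tek at 0.577, Ifngr1 at 0.765 and Ifnar1 at 0.592, all with intervals below 1, with 27 and 40 neutrophil-like and 44 and 169 erythroid-like cells then included. Of the 10 such alternatives for Ifnar1, 9 were below 1, and of the 8 with an interval 5 lay wholly below 1. All 32 alternative differences in share stayed within their intervals. Requiring at least 2 UMIs gave a difference of 0 for Tek, Cxcr4, Tgfbr1 and Tgfbr2, and the 20 draws thinned the same cells again. These settings thus say little of stability. The other resolutions of the first clustering gave the same numbers of cells of each kind and the same ratios between kinds, so they say nothing of stability. At second resolution 0.5 the Id2Δ/Δ HSC-like levels were 9.23 CPM for Tek, 12.1 for Il6st, 28.3 for Ifnar1 and 113 for Ifngr1, and with genes scaled within each library Ifngr1 was at 116 CPM. For the genes of all lists, the 2 higher became 0 past 2-fold and 5 with at least 5 UMIs, and the 21 lower became 8 past 2-fold and 13 under TMM. Of all genes, 393 were higher, which became 92 past 2-fold, 854 with at least 5 UMIs, 234 with at least 50 and 624 under TMM. The 1386 lower became 453 past 2-fold, 2228 with at least 5 UMIs and 820 with at least 50. Depth limits Tek, Cxcr4, Tgfbr1, Tgfbr2 and Il6st most, with 13 to 43 UMIs per library in retained cells.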
